A study of Mus musculus with 12 samples.

Results

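Expression of 10 regulators of epithelial and mesenchymal state was followed in cultured mouse pancreatic cancer cells (CCs) with different p53 status. The regulators were the SNAIL factors Snai1 and Snai2, the ZEB factors Zeb1 and Zeb2, the TWIST factors Twist1 and Twist2, the epithelial transcription factors Grhl2 and Ovol1, and the epithelial splicing factors Esrp1 and Esrp2. All probe sets of the Affymetrix mouse array whose annotation gave one of these genes and no other were taken, which made 23 of 45037 probe sets and 10 of 18193 genes. The rule for membership used gene names alone, although earlier results of these data were known when the genes were picked. The 12 arrays formed 4 groups of 3. The mt-CCs came from tumors of mice in which Pdx1-Cre, a recombinase driven by a pancreatic promoter, switched on Trp53 R172H, a gain-of-function mutant. The fl-CCs + p53 R175H were p53-null cells transfected with R175H, the human counterpart of R172H. The fl-CCs + EV were p53-null cells transfected with empty vector, and both transfected groups were kept in 0.6 mg/ml G418. The untransfected fl-CCs came from tumors with the same Pdx1-Cre and a floxed Trp53 allele in place of the mutant, and were grown without G418, as were the mt-CCs. The genotype labels could not be checked on Trp53 itself, which was not analysed here. The animals' ages were not given for these cells, and each genotype was represented by cultures of a single line as far as the sources say. The p-values therefore measure the spread between cultures. Because mt-CCs and fl-CCs came from different tumors, p53 status and cell line cannot be told apart between them. Below, the effect of endogenous mutant p53 is short for the difference between mt-CCs and fl-CCs. That of transfected mutant p53 is short for the difference between p53 R175H and EV cells. The transfected groups also differed in Y-linked transcripts, given below. Mutant p53 and other differences between these groups cannot be told apart.

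The SNAIL, ZEB and TWIST factors bind E-box sequences in DNA and act in epithelial-mesenchymal transition, the program in which epithelial cells lose their junctions and take on the traits of migratory mesenchymal cells. SNAIL and ZEB factors are zinc finger proteins that repress Cdh1, the gene for E-cadherin, while TWIST factors are basic helix-loop-helix proteins. Grhl2 and Ovol1 support the epithelial program, and Grhl2 and Zeb1 repress each other. Esrp1 and Esrp2 are RNA-binding proteins that set the epithelial splice forms of transcripts such as Fgfr2, Cd44 and Ctnnd1. In pancreatic cancer the program has been linked to invasion and to poor response to chemotherapy.

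RefSeq promoter windows (mouse build GRCm38.p6, 250 bases before to 50 bases after a transcription start) were at hand for 4 of the 10 genes, in 7 windows. They are shown for the 3 factors with the widest differences between the groups below, Twist1, Twist2 and Zeb2 (the outermost of its 4 starts), and for Snai1, because it alone held the E-box searched for. That motif was CACCTG, read on both strands, so that its reverse complement CAGGTG was counted too. It is printed in capitals. The Snai1 match began at position -126, counted from the transcription start. Of all 32851 windows, 20.2% held the motif, against 1 of the 7 windows here. The windows are given 5′ to 3′ on the gene's strand, and a match is a description of the letters and not of binding.
Twist1, chr12:33957421-33957720, plus strand: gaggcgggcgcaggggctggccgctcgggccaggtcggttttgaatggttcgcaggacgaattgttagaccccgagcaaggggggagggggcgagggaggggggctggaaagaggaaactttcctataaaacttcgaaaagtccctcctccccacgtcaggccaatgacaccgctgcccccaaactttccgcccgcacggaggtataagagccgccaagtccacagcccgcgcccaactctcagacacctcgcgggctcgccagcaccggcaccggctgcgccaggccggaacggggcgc
Twist2, chr1:91801211-91801510, plus strand: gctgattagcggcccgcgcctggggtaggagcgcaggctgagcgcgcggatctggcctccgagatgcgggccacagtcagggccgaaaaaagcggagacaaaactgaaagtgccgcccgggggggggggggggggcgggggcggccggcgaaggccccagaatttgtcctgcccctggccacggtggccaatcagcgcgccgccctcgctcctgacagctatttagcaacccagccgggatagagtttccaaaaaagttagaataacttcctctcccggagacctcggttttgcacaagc
Zeb2, chr2:45117393-45117692, minus strand: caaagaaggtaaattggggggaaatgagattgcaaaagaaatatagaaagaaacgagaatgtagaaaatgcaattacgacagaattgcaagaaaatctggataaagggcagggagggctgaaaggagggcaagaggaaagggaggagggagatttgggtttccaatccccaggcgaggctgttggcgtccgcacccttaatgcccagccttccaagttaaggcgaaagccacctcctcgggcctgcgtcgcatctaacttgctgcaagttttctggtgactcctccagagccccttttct
Snai1, chr2:167537945-167538244, plus strand: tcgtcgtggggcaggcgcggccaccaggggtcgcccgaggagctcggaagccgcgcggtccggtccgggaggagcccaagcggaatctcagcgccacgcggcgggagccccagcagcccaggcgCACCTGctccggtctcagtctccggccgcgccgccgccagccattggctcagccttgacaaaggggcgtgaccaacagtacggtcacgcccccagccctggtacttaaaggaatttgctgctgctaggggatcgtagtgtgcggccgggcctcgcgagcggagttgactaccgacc
The bases G and C made up 66.0% of the Twist1 window, 64.7% of the Twist2 window, 49.3% of the Zeb2 window and 70.0% of the Snai1 window.

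All values below are log2 RMA values, on which a difference of 1 is a doubling, and levels are compared only within a probe set. A value under log2 5 was taken as near background, a level set here in the absence of detection calls. Where every array of the dimmer group was near background, a called difference is given as "at least" the brighter group's mean minus 5, and where both groups were, no size is given. Arrays of a group correlated at r = 0.994 to 0.996 over all probe sets, and mt-CC arrays with those of the other groups at 0.96 to 0.963. Of the 23 member probe sets, 6 stayed under log2 5 in all 12 arrays. They were 1 of 4 for Zeb1, 2 of 5 for Zeb2, 2 of 4 for Grhl2 and the only one for Esrp1. The number of arrays limits the precision. In bulk RNA a smaller share of cells that express a gene and less RNA in each cell cannot be told apart.

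The first comparison asked whether cells with endogenous mutant p53 differed from p53-null cells in these regulators. TWIST, ZEB and SNAI2 transcripts were higher in mt-CCs, Grhl2 was higher too, and Esrp2 was lower. In the limma fit, 12 of 23 probe sets (52.2%), from 7 of the 10 genes, passed an adjusted p of 0.05 between mt-CCs and fl-CCs, where 30.7% of all probe sets did. Of the 12, 10 were higher and 2 lower in mt-CCs. The median difference over the 23 was 0.26, against -0.02 over all probe sets. Transfected p53 R175H gave 5 called probe sets of 23 against EV (21.7%, all higher, from Zeb2, Twist1 and Twist2), beside 20.3% of all probe sets, so that the members' share lay near the background of that comparison. Their median difference was 0.03, against -0.01 over all probe sets. Without the first p53 R175H array, 2 of the 5 calls were left, and without EV array 1 or 2, 3 were left.

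**Figure D1:**
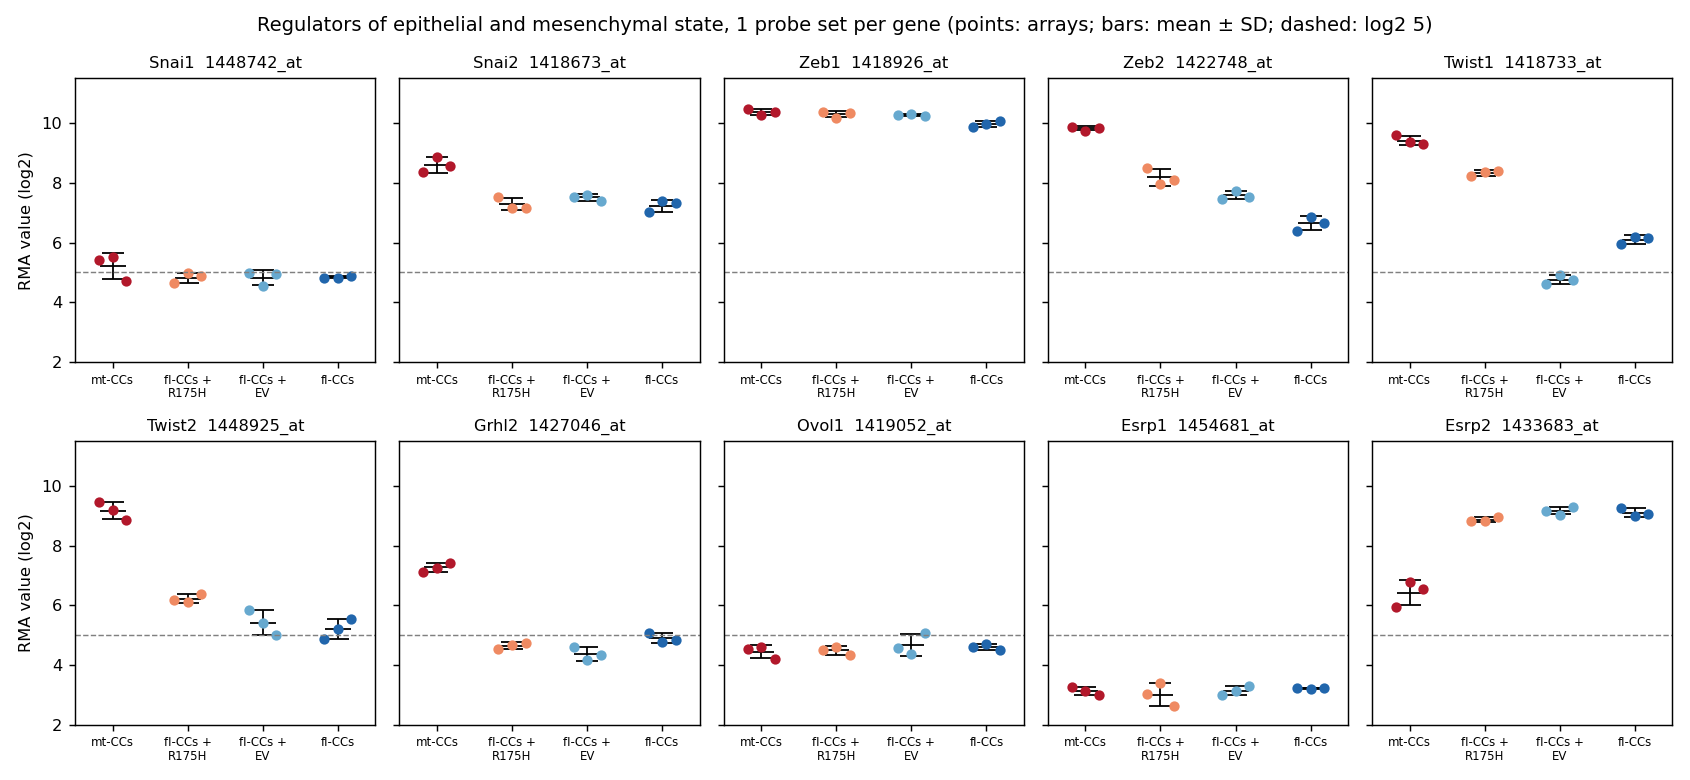
RMA values (log2, vertical axis) of 1 probe set for each of the 10 genes, the one with the smallest adjusted p between mt-CCs and fl-CCs, in mt-CCs, fl-CCs + p53 R175H, fl-CCs + EV and fl-CCs from left to right. Points are arrays, bars the mean ± SD of 3 arrays, and the dashed line log2 5. Zeb2, Twist1, Twist2 and Grhl2 stand highest in mt-CCs and Esrp2 lowest there, while Esrp1 lies between 2.61 and 3.38 throughout.

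Twist1, a factor that acts in mesoderm and neural crest development, was the member with the widest difference in the transfected cells. Its probe set (1418733_at) read 9.60, 9.36 and 9.29 in mt-CCs, 8.23, 8.35 and 8.41 in fl-CCs + p53 R175H, 4.62, 4.92 and 4.74 in fl-CCs + EV, and 5.94, 6.20 and 6.16 in fl-CCs. No group overlapped another, and the EV arrays were the lowest, below the untransfected parent. Between mt-CCs and fl-CCs the difference was 3.32 ± 0.12 (SE, limma adjusted p = 5.11e-10), a 9.96-fold higher level. With p53 R175H, Twist1 was at least 3.33 higher than with EV (at least 10.1-fold, adjusted p = 3.5e-09), because all 3 EV arrays lay near background. The EV cells were in turn lower than fl-CCs by at least 1.10 (adjusted p = 1.81e-05). Against fl-CCs, p53 R175H cells were higher by 2.23 ± 0.12 (adjusted p = 5.11e-07). The difference between the effects of endogenous and of transfected mutant p53 was not called (limma adjusted p = 0.304), which does not show that they were equal. Its fitted value, -0.26 (95% interval -0.61 to 0.10), rests on EV arrays near background, so its size is not reliable.

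The pattern of Twist1 over the 12 arrays was most like that of Zik1 (Pearson r = 0.994), Clca3a1 (r = 0.994) and Uty (r = 0.993), out of 12948 genes compared, of which 94 had an r over 0.95 with it. These are descriptions over 12 arrays in 4 clusters, and carry no test. Zik1, a zinc finger gene, averaged 8.04 in mt-CCs, 7.04 in fl-CCs + p53 R175H, 3.72 in fl-CCs + EV and 5.22 in fl-CCs, the same order of groups as Twist1. Uty is a Y-linked demethylase gene. It read 6.90, 7.13 and 6.94 in mt-CCs, 6.49, 6.35 and 6.28 in fl-CCs + p53 R175H, 3.33, 3.45 and 3.50 in fl-CCs + EV, and 4.34, 4.78 and 4.83 in fl-CCs. After Uty was seen, the other Y-linked genes were looked up. Of 9 measured, 5 had a group mean of 5 or more, and Eif2s3y (r = 0.98 with Twist1) and Kdm5d (r = 0.94) moved the same way. Eif2s3y averaged 10.77 ± 0.04 in mt-CCs, 9.55 ± 0.10 in p53 R175H cells, 5.49 ± 0.32 in EV cells and 7.79 ± 0.03 in fl-CCs (SD, n = 3 each). With p53 R175H against EV it was higher by 4.06 (adjusted p = 3.74e-09), and EV cells were lower than fl-CCs (difference -2.30, adjusted p = 9.04e-07). Sry and Zfy2, the other 2, were not called in either comparison. EV and p53 R175H cells therefore differed in Y-linked transcripts along with Twist1, and the part of this in the Twist1 difference was not tested.

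**Figure D2:**
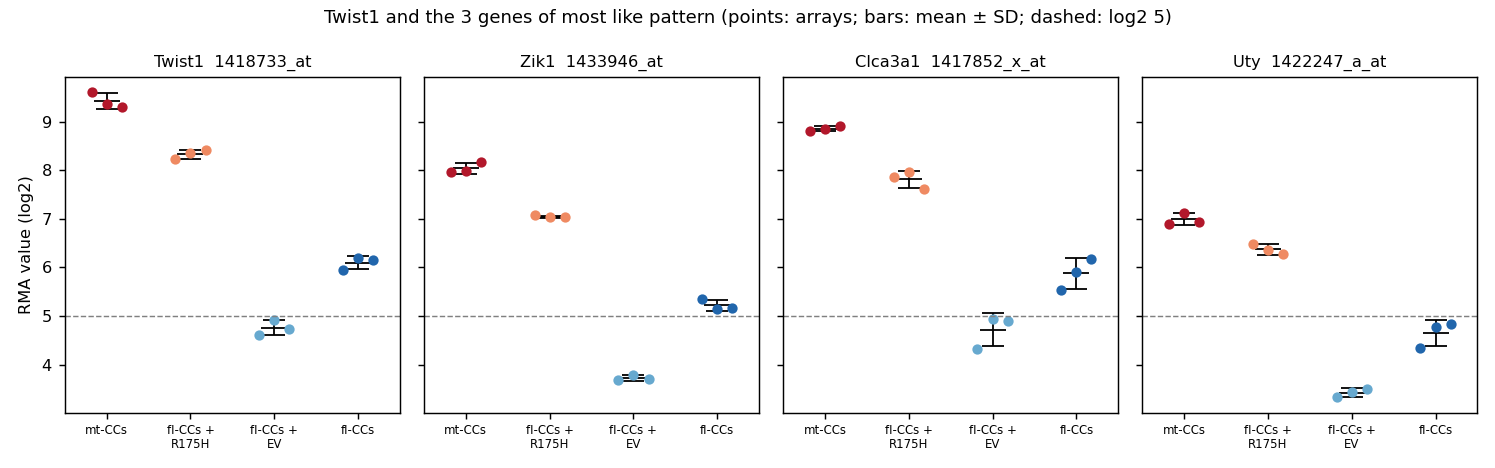
RMA values (log2, vertical axis) of Twist1 and of Zik1, Clca3a1 and Uty in mt-CCs, fl-CCs + p53 R175H, fl-CCs + EV and fl-CCs. Points are arrays, bars the mean ± SD of 3 arrays, and the dashed line log2 5. In all 4 panels mt-CCs are highest, p53 R175H cells next, fl-CCs lower and EV cells lowest.

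Twist2, the close paralog of Twist1, had the widest difference of any member between mt-CCs and fl-CCs. It read 9.46, 9.18 and 8.87 in mt-CCs, 6.16, 6.11 and 6.38 in fl-CCs + p53 R175H, 5.83, 5.41 and 4.99 in fl-CCs + EV, and 4.86, 5.21 and 5.53 in fl-CCs. The mt-CC arrays stood far above the rest, the p53 R175H arrays were next without overlap, and the EV and fl-CC arrays overlapped. Against fl-CCs, mt-CCs were higher by 3.97 ± 0.22 (adjusted p = 3.71e-08, 15.7-fold). With p53 R175H the rise over EV was 0.81 ± 0.22 (adjusted p = 0.0222). That call was lost without EV array 2 (adjusted p = 0.0576) or 3 (0.0887), without p53 R175H array 1 (0.0503) or 3 (0.0805), and in an unmoderated model (0.0633). EV and fl-CCs differed by 0.21 (95% interval -0.27 to 0.69, adjusted p = 0.642). The endogenous effect exceeded the transfected one by 3.17 ± 0.31 (adjusted p = 1.09e-05). The most like patterns were those of Lrig2 (r = 0.993), Psme1 (r = 0.991) and Sparc (r = 0.991), with 237 genes over 0.95. Twist1 and Twist2, which share their DNA-binding fold, correlated at 0.83 over the arrays. Only for Twist2 was the difference of the effects called, and for Twist1 that test rested on EV arrays near background.

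Zeb2, a zinc finger repressor of E-cadherin and other junction genes, was stepped across all 4 groups in 3 of its 5 probe sets. Probe set 1422748_at read 9.88, 9.75 and 9.85 in mt-CCs, 8.51, 7.95 and 8.08 in fl-CCs + p53 R175H, 7.47, 7.73 and 7.54 in fl-CCs + EV, and 6.39, 6.86 and 6.67 in fl-CCs. Its groups did not overlap, and mt-CCs were highest. Probe set 1434298_at read 8.30, 8.62 and 8.33 in mt-CCs, 7.95, 7.19 and 7.15 in p53 R175H cells, 6.61, 6.51 and 6.76 in EV cells, and 5.38, 5.83 and 5.56 in fl-CCs. Probe set 1456389_at read 7.91, 7.79 and 7.63 in mt-CCs, 6.87, 6.01 and 6.23 in p53 R175H cells, 5.65, 5.24 and 5.92 in EV cells, and 4.46, 4.30 and 4.47 in fl-CCs. In all 3 the first p53 R175H array was the highest of its group. Against fl-CCs, mt-CCs were higher by 3.18 ± 0.15 (9.07-fold, adjusted p = 8.94e-09), by 2.83 ± 0.20 (adjusted p = 3.11e-07) and by at least 2.78 (adjusted p = 1.08e-07) in the 3 probe sets. The other 2 lay between 2.25 and 3.37 in every array. One of them, 1454200_at, passed the test (adjusted p = 0.0119) with both groups near background.

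Vector-transfected cells already had more Zeb2 than their parent. EV was higher than fl-CCs by 0.94 ± 0.15 (adjusted p = 0.00173), by 1.03 ± 0.20 (0.00489) and by at least 0.60 (0.00299) in the same 3 probe sets. With p53 R175H, Zeb2 was higher than with EV by 0.60 ± 0.15 (adjusted p = 0.015), 0.81 ± 0.20 (0.0121) and 0.77 ± 0.21 (0.022). For 1434298_at this call held without any single array. For 1422748_at it was lost without EV array 1 (adjusted p = 0.0578) or p53 R175H array 1 (0.44, adjusted p = 0.0552). For 1456389_at it was lost without EV array 1 (0.0509) or 2 (0.0905), without p53 R175H array 1 (0.0724), in a fit of the 2 groups alone (0.0786) and in an unmoderated model (0.0617). The endogenous effect was larger than the transfected one by 2.58 ± 0.22 for 1422748_at (adjusted p = 2.4e-06) and by 2.02 ± 0.28 for 1434298_at (adjusted p = 1.68e-04). It was also larger for 1456389_at (adjusted p = 3.68e-05), whose fl-CC arrays were near background. The genes most like Zeb2 in pattern were Akap2 (r = 0.997), Pwwp3b (r = 0.990) and Gas1 (r = 0.987). Akap2 averaged 10.68 in mt-CCs, 9.59 in p53 R175H cells, 9.20 in EV cells and 8.49 in fl-CCs.

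Zeb1, the paralog of Zeb2, was well above background in all groups. Probe set 1418926_at read 10.47, 10.28 and 10.37 in mt-CCs, 10.38, 10.19 and 10.33 in fl-CCs + p53 R175H, 10.26, 10.30 and 10.23 in fl-CCs + EV, and 9.88, 9.98 and 10.07 in fl-CCs. The fl-CC arrays were the lowest and did not overlap the others. Against fl-CCs, mt-CCs were higher by 0.40 ± 0.09 (1.32-fold, adjusted p = 0.00403). p53 R175H and EV cells differed by 0.03 (95% interval -0.16 to 0.23, adjusted p = 0.859), and EV and fl-CCs by 0.29 (0.10 to 0.48, adjusted p = 0.0537). The endogenous effect exceeded the transfected one by 0.37 ± 0.13 (adjusted p = 0.048), a call lost with array weights and without most single arrays (adjusted p = 0.0657 to 0.115 where lost). The other 3 Zeb1 probe sets were not called in any of the comparisons. They ran from 5.48 to 6.0 (1443005_at), from 5.66 to 6.57 (1446127_at) and from 2.0 to 2.40 (1420243_at).

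Snai2 (Slug), which represses Cdh1 in the neural crest and in carcinoma cells, was higher in mt-CCs than in the other 3 groups. Probe set 1418673_at read 8.35, 8.87 and 8.57 in mt-CCs, 7.52, 7.17 and 7.16 in fl-CCs + p53 R175H, 7.53, 7.60 and 7.40 in fl-CCs + EV, and 7.01, 7.38 and 7.32 in fl-CCs. Probe set 1447643_x_at, of a class whose probes can match further transcripts, read 11.05, 11.44 and 11.39 in mt-CCs, 10.35, 9.99 and 9.95 in p53 R175H cells, 10.17, 10.19 and 10.32 in EV cells, and 9.68, 10.13 and 10.14 in fl-CCs. In both, the mt-CC arrays stood above all 9 others. The differences from fl-CCs were 1.36 ± 0.15 (2.56-fold, adjusted p = 2.09e-05) and 1.31 ± 0.15 (2.48-fold, adjusted p = 3.38e-05). p53 R175H and EV cells overlapped, and differed by -0.23 (95% interval -0.56 to 0.10, adjusted p = 0.355) and -0.13 (-0.46 to 0.21, adjusted p = 0.655). The endogenous effect was larger by 1.59 ± 0.21 (adjusted p = 1.36e-04) and 1.44 ± 0.22 (adjusted p = 3.43e-04). Dnajc10 (r = 0.978), Celf4 (r = 0.977) and Shank3 (r = 0.976) were most like Snai2 over the arrays.

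Snai1 (Snail), the best known repressor of Cdh1, lay close to background. It read 5.42, 5.51 and 4.70 in mt-CCs, 4.64, 4.97 and 4.87 in p53 R175H cells, 4.99, 4.53 and 4.94 in EV cells, and 4.82, 4.82 and 4.87 in fl-CCs. Of the 12 arrays, 2 were above log2 5, both of mt-CCs, whose array 3 was below the fl-CCs. The difference between mt-CCs and fl-CCs was 0.38 ± 0.19 (95% interval -0.05 to 0.80, adjusted p = 0.177), and no size is given for the transfected cells, where both groups were near background.

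**Figure D3:**
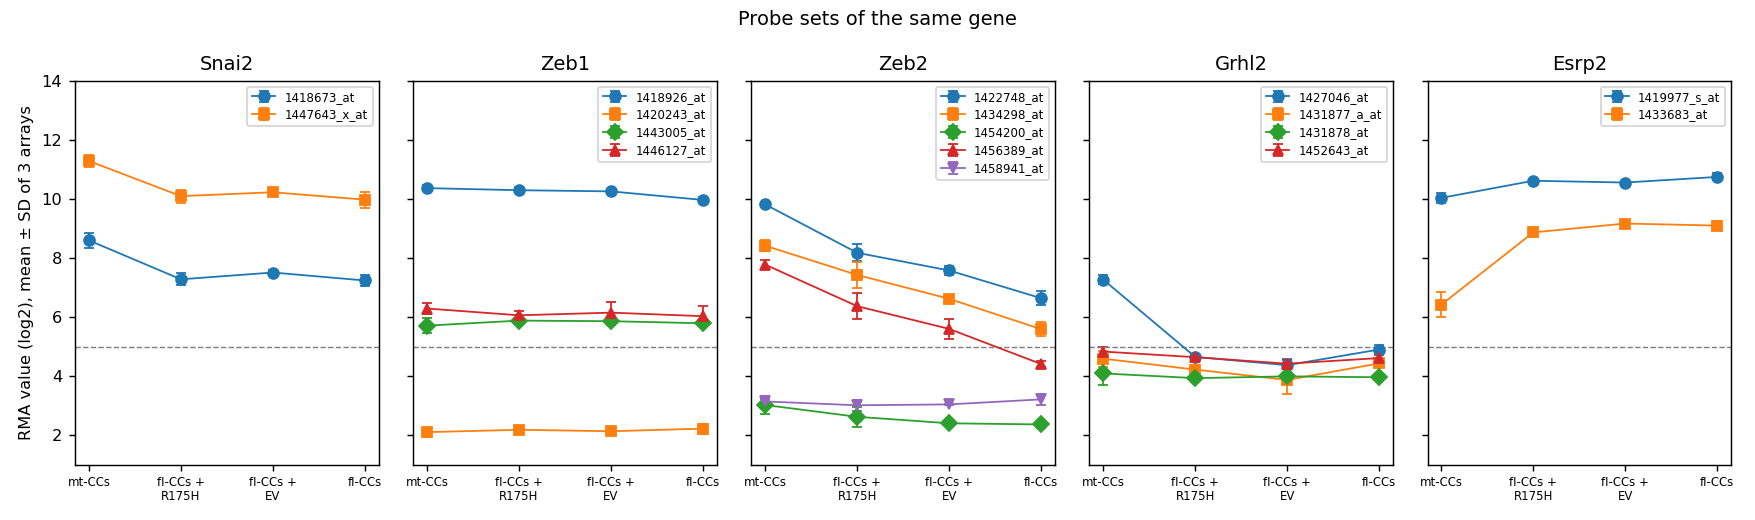
Group means (log2 RMA value, vertical axis; bars, SD of 3 arrays) of every probe set of Snai2, Zeb1, Zeb2, Grhl2 and Esrp2 in mt-CCs, fl-CCs + p53 R175H, fl-CCs + EV and fl-CCs. The dashed line is log2 5. A line joins the groups of 1 probe set and marks no time course. For Zeb2, 3 probe sets descend from left to right and 2 lie flat under the line, and for Grhl2 only 1427046_at rises above the line, in mt-CCs.

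Among the epithelial factors, Grhl2, which activates Cdh1 and junction genes, was higher in mt-CCs. Probe set 1427046_at read 7.13, 7.24 and 7.43 in mt-CCs, 4.53, 4.68 and 4.74 in fl-CCs + p53 R175H, 4.60, 4.16 and 4.34 in fl-CCs + EV, and 5.08, 4.78 and 4.85 in fl-CCs. Only mt-CCs stood clear of background, with 1 fl-CC array just above it. With 2 of the 3 fl-CC arrays under log2 5 (mean 4.90), mt-CCs were higher by at least 2.27, counted from that level (adjusted p = 3.06e-08). With p53 R175H and EV both near background, no size is given (adjusted p = 0.163). EV cells were below fl-CCs (adjusted p = 0.0181), a call lost without EV array 2 (adjusted p = 0.0761) or 3 (0.0579), without fl-CC array 1 (0.0717) and in a fit of the 2 groups alone (0.0547). The effects of endogenous and transfected mutant p53 differed (adjusted p = 3.74e-06), by an amount that is not given because both transfected groups were near background. The other 3 Grhl2 probe sets were not called in this or the other comparisons and did not follow the first. They lay at 3.32 to 4.76 (1431877_a_at), 3.68 to 4.46 (1431878_at) and 4.29 to 5.01 (1452643_at), at or under the background level. Ifitm3 (r = 0.994), Tspan11 (r = 0.992) and Rasl11a (r = 0.992) were most like 1427046_at, and 307 genes had an r over 0.95.

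Ovol1, a zinc finger repressor of mesenchymal genes, ranged from 4.75 to 5.33 (1419051_at) and from 4.20 to 5.08 (1419052_at) and did not pass the test. The estimates for mt-CCs minus fl-CCs were 0.10 (95% interval -0.23 to 0.43, adjusted p = 0.69) for the first and, with both groups near background, no size for the second (adjusted p = 0.586). Levels this low leave a change in Ovol1 not detectable here.

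The ESRP pair stood apart from each other. The single Esrp1 probe set (1454681_at) lay between 2.61 and 3.38 in all arrays, near background also in fl-CCs, where Cdh1 was well above background. Esrp2 was measured well above background and was lower in mt-CCs. Probe set 1433683_at read 5.95, 6.77 and 6.54 in mt-CCs, 8.84, 8.81 and 8.97 in fl-CCs + p53 R175H, 9.17, 9.04 and 9.29 in fl-CCs + EV, and 9.27, 8.98 and 9.05 in fl-CCs. The mt-CC arrays were all below the other 9. The difference from fl-CCs was -2.68 ± 0.17 (6.42-fold lower in mt-CCs, adjusted p = 1.44e-07). Probe set 1419977_s_at, of a class that can match more than 1 transcript, read 10.24, 9.94 and 9.94 in mt-CCs, 10.65, 10.62 and 10.59 in p53 R175H cells, 10.59, 10.51 and 10.57 in EV cells, and 10.74, 10.63 and 10.87 in fl-CCs. It too was lowest in mt-CCs, by less, at -0.71 ± 0.10 (1.63-fold lower, adjusted p = 1.57e-04). p53 R175H and EV cells differed by -0.29 (95% interval -0.67 to 0.08, adjusted p = 0.293) and 0.06 (-0.15 to 0.28, adjusted p = 0.74). The effects of endogenous and transfected mutant p53 differed by -2.39 ± 0.24 (adjusted p = 1.4e-05) and -0.77 ± 0.14 (adjusted p = 0.0014).

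**Figure D4:**
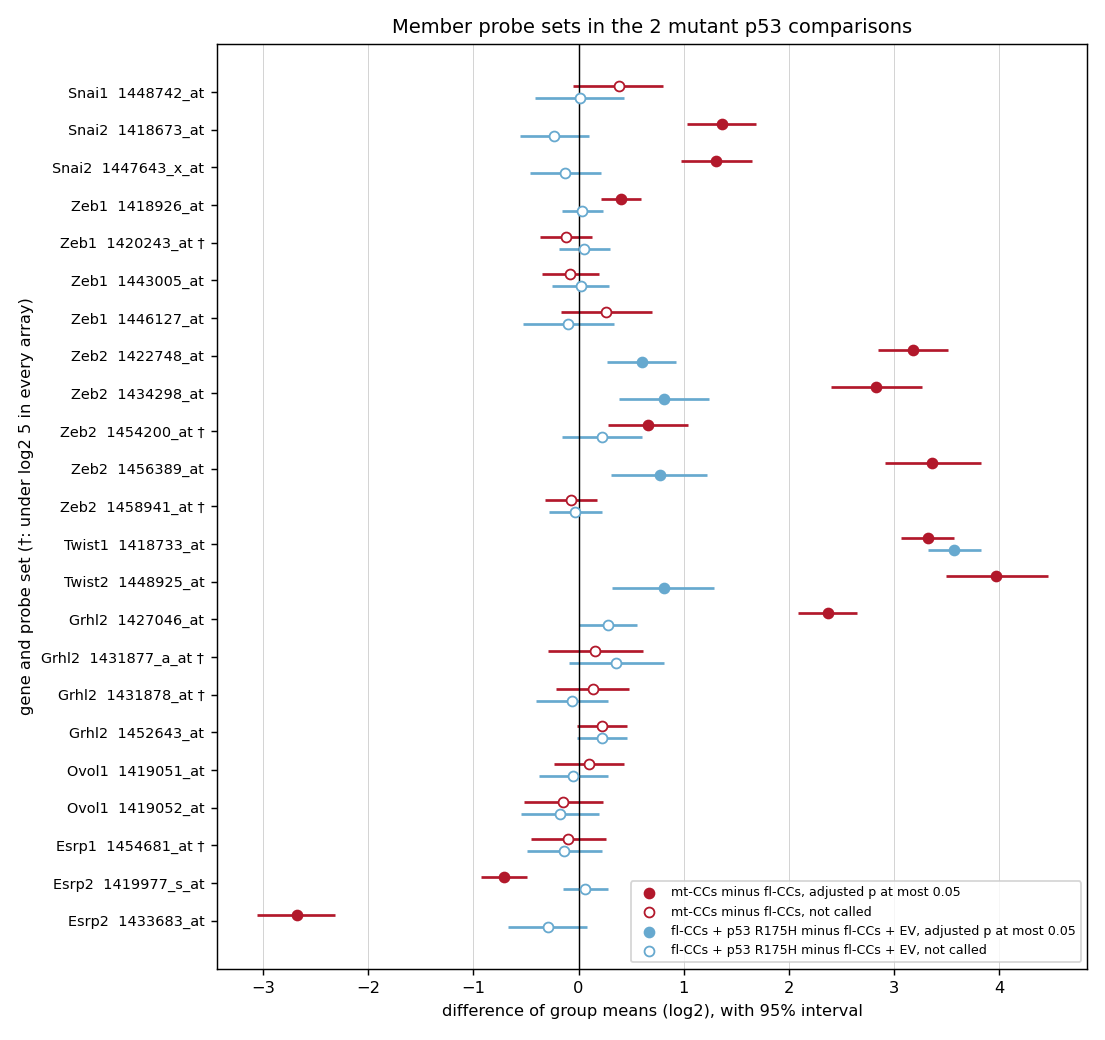
Differences of group means (log2, horizontal axis) with 95% intervals for the 23 member probe sets, for mt-CCs minus fl-CCs (red, upper of each pair) and fl-CCs + p53 R175H against fl-CCs + EV (blue, lower). Filled points passed an adjusted p of 0.05, and a dagger marks probe sets under log2 5 in every array, whose differences have no reliable size. The Twist1 intervals overlap well above 0, while Twist2, Zeb2, Snai2, Grhl2 and Esrp2 lie near 0 or below 1 in the transfected cells. The EV arrays of Twist1 lay near background, so its blue interval has no reliable size.

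The remaining comparisons set the transfected cells against their parent and against mt-CCs. EV against fl-CCs called 5 of 23 probe sets (3 of Zeb2 higher, 1 of Twist1 and 1 of Grhl2 lower), beside 12.1% of all probe sets. These cells differed in vector and G418, and also in the Y-linked transcripts given above. p53 R175H cells against fl-CCs called 6 (26.1%, all higher, from Zeb1, Zeb2, Twist1 and Twist2), beside 15.0%. mt-CCs against p53 R175H cells called 10 (43.5%, 8 higher and 2 lower), beside 33.1%, and Twist1 was among them with a difference of 1.09 ± 0.12 (adjusted p = 1.37e-05). The difference of the 2 mutant p53 effects was called for 10 probe sets of 6 genes, 8 positive and 2 negative, beside 26.8% of all probe sets. Across the 12 arrays the closest pair of members was Zeb2 and Twist2 (Pearson r = 0.94), followed by Twist2 and Grhl2 (0.93), and the loosest was Snai2 and Twist1 (0.63), among the 5 genes whose probe set of highest mean varied by at least 1 between group means. These arrays fall into 4 groups, so the correlations are descriptions. Esrp2 was left out of them, because the group means of its brightest probe set ran only from 10.04 to 10.75. Its other probe set, 1433683_at, moved against the 5 genes, with 6.42 in mt-CCs and 9.10 in fl-CCs.

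The genes around the regulators were followed in 8 lists of 186 genes, of which 174 were measured, each by its probe set of smallest adjusted p. Sizes and bounds given for these genes belong to that probe set, and other probe sets of a gene can differ. Between mt-CCs and fl-CCs 127 of the 174 passed the test, while 22.2% of all genes were higher and 21.1% lower, and the median over all genes was -0.01. Epithelial genes known as SNAIL or ZEB targets moved most uniformly. Of 34 measured, 27 were lower in mt-CCs, 1 was higher and 6 were not called, with a median of -1.45. Dsp, the desmosome protein desmoplakin, was lower by at least 6.39. Muc1, a mucin of the apical surface, fell by 5.47 (5.74 in mt-CCs against 11.21 in fl-CCs, adjusted p = 1.8e-11), and Marveld3, of tight junctions, was lower by at least 2.92. Cdh1 read 10.00, 10.13 and 9.90 in mt-CCs, 12.46, 12.41 and 12.58 in p53 R175H cells, 12.16, 12.17 and 12.29 in EV cells, and 12.27, 12.21 and 12.27 in fl-CCs. It was lower in mt-CCs than in fl-CCs (difference -2.24 ± 0.09, adjusted p = 1.45e-09), and slightly higher with p53 R175H than with EV, by 0.28 ± 0.09 (adjusted p = 0.0452). The exception was Cldn3, a tight junction claudin, which was higher in mt-CCs in all 4 of its probe sets (differences of 0.47 to 1.24) at low levels, with means of 5.09 to 5.92 in mt-CCs and 4.62 to 5.18 in fl-CCs.

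Of 28 mesenchymal genes measured, 18 were higher in mt-CCs, 3 lower and 7 not called (median 0.57). Read by the probe set of highest mean, 14 were higher and 3 lower (median 0.41). Col3a1, a fibrillar collagen, was higher by at least 4.50 and Tgfbi, a secreted matrix protein, by at least 3.90. Pdgfrb, a receptor for platelet-derived growth factor, had 2 probe sets with unequal differences. One averaged 7.01 in mt-CCs and was near background in fl-CCs (mean 2.19), and the other averaged 7.37 in mt-CCs against 6.11 in fl-CCs (difference 1.25 ± 0.14, adjusted p = 2.37e-05). Cdh2, the gene for N-cadherin, was lower (9.47 in mt-CCs against 10.22 in fl-CCs, difference -0.75, adjusted p = 2.58e-04), while the 2 probe sets of Itgb3, an integrin chain, were called in opposite directions (-0.62 and 0.50). Vim, the gene for the intermediate filament vimentin, was high in all groups and 0.35 ± 0.08 higher in mt-CCs by 1 of its 3 probe sets (13.44 against 13.09 in fl-CCs, adjusted p = 0.0039). The other 2 differed by 0.15 and 0.20 and were not called.

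Other transcription factors of the mesenchymal state were higher in 8 of 21 cases and lower in 2 (median 0.28). Osr1 averaged 9.69 in mt-CCs against 4.87 in fl-CCs (difference 4.82 ± 0.11, adjusted p = 1.95e-11). Its fl-CC arrays read 4.74, 4.77 and 5.09, so that size rests on values near background. Prrx1, a homeobox factor of mesenchyme, was higher by at least 3.59. With p53 R175H against EV, Osr1 was higher by at least 0.61 (adjusted p = 2.48e-04), and Prrx1 averaged 5.15 in p53 R175H cells and 4.84 in EV cells (adjusted p = 0.0655). Foxf2 and Foxq1 were lower in mt-CCs (-0.97 and -0.86) and higher with p53 R175H (0.92 and 0.63), and Etv4 had the opposite signs (1.44 and -0.85). Other factors of the epithelial state split, with 5 of 19 higher and 8 lower (median -0.27). Ehf, an epithelial ETS factor, was higher by 3.39 ± 0.15 in mt-CCs and by 2.01 ± 0.15 with p53 R175H. Id3, an inhibitor of helix-loop-helix factors, was higher by 3.08 in mt-CCs and by 2.75 with p53 R175H against EV. Like Twist1, it was lower in EV cells than in their parent (6.88 in EV cells against 8.44 in fl-CCs, difference -1.55, adjusted p = 1.21e-04). Gata3 had opposite signs, higher in mt-CCs (1.40) and lower with p53 R175H against EV (-1.16). Its mean was 4.82 both in p53 R175H cells and in fl-CCs, while EV cells stood above their parent (difference 1.16, adjusted p = 0.0108). Its arrays read 4.51, 4.81 and 5.15 in p53 R175H cells and 4.44, 4.75 and 5.28 in fl-CCs. These Gata3 sizes therefore rest in part on values near background. Id2, a relative of Id3, was lower in mt-CCs (-1.91). Tfcp2l1, of the same family as Grhl2, averaged 5.18 in mt-CCs against 8.76 in fl-CCs (difference -3.58, adjusted p = 1.5e-09), opposite in sign to Grhl2. Elf3 was lower in mt-CCs (-1.65) and with p53 R175H (-0.83).

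Genes listed as corepressors and chromatin partners were called in both directions, 9 higher and 9 lower of 23 (median -0.15). Read by the probe set of highest mean, 6 were higher and 9 lower (median -0.07). Ctbp2, a corepressor bound by ZEB factors, was lower (8.83 in mt-CCs against 9.98 in fl-CCs, difference -1.15 ± 0.09, adjusted p = 7.56e-07), as were Ajuba (-0.76) and Sin3a (-0.72), and Nab2 (1.33), Setdb1 (0.59) and Zbtb7a (0.55) were higher, Zbtb7a by 1 of its 3 probe sets. Among genes for the turnover of SNAIL and TWIST proteins, 8 of 18 were higher and 6 lower, or 6 and 4 by the probe set of highest mean. Loxl3, a lysyl oxidase family member reported to act with Snail, averaged 9.67 in mt-CCs against 6.46 in fl-CCs (difference 3.20 ± 0.16, adjusted p = 1.21e-08), and Cops2 was higher by 0.78. Prkd1 was higher too (adjusted p = 6.53e-05), with a mean of 4.80 in mt-CCs, so that no size is given. The F-box protein Fbxl5 was lower (-0.64). The ubiquitin ligase Siah2 was lower by the probe set that stood for it (-0.86), while its brighter one was not called (-0.22). The kinase Csnk1e was lower by its dimmest probe set (-0.49), while the brighter ones were not called (-0.10 and 0.10). These transcripts say nothing of protein levels, which were not measured on the arrays.

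Splicing regulators other than the ESRPs were lower in 11 of 19 cases and higher in 2 (median -0.34), or lower in 6 of 19 with a median of -0.09 when each gene was read by its probe set of highest mean. Rbm47, an RNA-binding protein of epithelial splicing, averaged 6.65 in mt-CCs against 8.34 in fl-CCs (difference -1.69 ± 0.12, adjusted p = 3.06e-07). Qk, another RNA-binding protein, was lower by the dim probe set that stood for it (-1.08, mean 5.20 in mt-CCs) and by others. Its brightest probe sets were not called (-0.09, with 11.60 in mt-CCs against 11.69 in fl-CCs, and -0.15). Tra2b was lower by at least 0.62 in a probe set near background in mt-CCs, while its brightest ones differed by -0.30 and -0.35. Khdrbs3 was higher in mt-CCs by at least 4.30. Rbfox2 was higher by 0.42 in the probe set that stood for it, while differences of 0.11 and 0.23 in others were not called. Of 12 transcripts spliced under ESRP control, 4 were higher and 6 lower, or 3 and 4 by the probe set of highest mean. Fgfr2, whose epithelial exon is the classic ESRP target, was near background in mt-CCs (mean 3.97, against 8.49 in fl-CCs), lower by at least 3.49, and averaged 8.16 in p53 R175H cells and 8.14 in EV cells. Cd44 (1.24) and Itga6 (0.59) were higher. Ctnnd1 was lower by the probe set that stood for it (-0.72), while its others were not called (-0.25 and -0.39). Map3k7 was lower by the probe set that stood for it (-0.63) and by others, while its brightest were not called (-0.14, -0.27 and 0.11). Enah, an actin regulator, was higher by the probe set that stood for it (1.16) and lower by another (-0.69, adjusted p = 0.0122). The probe sets measure a transcript's level at their own position, and splice forms were not analysed here.

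In the transfected cells fewer genes of each list were called. With p53 R175H against EV, where 15.3% of all genes were higher and 15.1% lower and the median was -0.03, 5 of 34 epithelial target genes were higher and 9 lower (median -0.07), and 5 of 28 mesenchymal genes were higher and 3 lower (median -0.06). Of the other mesenchymal-state factors 4 of 21 were higher and 3 lower, with a median of -0.10, and of the corepressors 1 of 23 was higher and 6 were lower (median -0.13). Other epithelial-state factors were called in 11 of 19 cases, 5 higher (26.3%) and 6 lower (31.6%), with a median of 0.10. Of the turnover genes 5 of 18 were higher (27.8%) and 2 lower (median 0.05), of the splicing regulators 3 of 19 were higher and 3 lower (median 0.18), and of the transcripts under ESRP control 2 of 12 were higher and 2 lower (median 0.02).

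**Figure D5:**
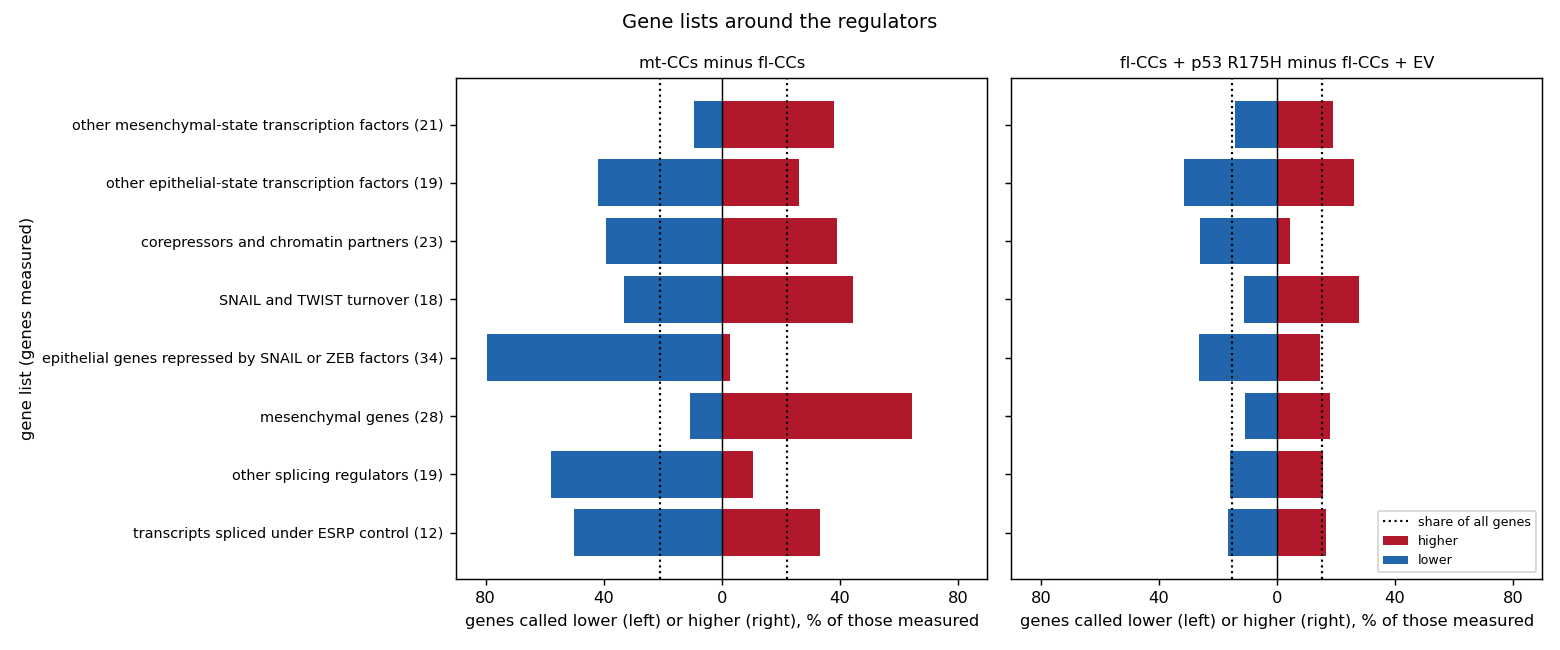
Share of the measured genes of each list (%, horizontal axis, with the number measured in parentheses) called lower (blue, to the left) or higher (red, to the right), for mt-CCs minus fl-CCs in the left panel and p53 R175H against EV in the right one. Dotted lines mark the share of all genes called in that direction. Epithelial target genes reach 79.4% lower and mesenchymal genes 64.3% higher in the left panel.

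Markers of other cell types moved in part with these results. Between mt-CCs and fl-CCs, 22.2% of all genes were higher in mt-CCs and 21.1% lower. Of 15 fibroblast markers, 7 were higher in mt-CCs and 1 lower, and their mean level was 5.58 to 5.71 in mt-CCs, 4.84 to 4.88 in p53 R175H cells, 4.72 to 4.81 in EV cells and 4.67 to 4.78 in fl-CCs. In mt-CCs 7 of the 15 stayed near background, among them Lum, Pdpn, Thy1, Fap and Postn, while Col1a1 was higher by 2.58 ± 0.14. Epithelial markers averaged 8.40 to 8.47 in mt-CCs, 9.37 to 9.52 in p53 R175H cells, 9.31 to 9.37 in EV cells and 9.49 to 9.55 in fl-CCs. Of these 12 markers, 8 were lower in mt-CCs and 1 was higher, with Epcam at -2.90 (mean 6.88 in mt-CCs) and Krt7 at -4.45 (mean 8.52). Other epithelial markers stayed high in mt-CCs. Krt19 averaged 13.68 in mt-CCs against 13.66 in fl-CCs, and Tjp1 12.09 against 12.11. Krt18 averaged 13.40 in mt-CCs against 13.75 in fl-CCs, and Krt8 12.94 against 13.30. Ptprc and Cd3e of leukocytes and Pecam1 and Cdh5 of endothelium were near background in every group. The leukocyte list averaged 4.45 to 4.58 in mt-CCs and 4.31 to 4.38 in fl-CCs, with 7 of 11 near background in both. Of the 11, 1 was higher in mt-CCs and 1 lower, which are smaller shares than over all genes. The higher one was Cd68, a lysosomal protein best known from macrophages (7.66 in mt-CCs against 5.75 in fl-CCs, difference 1.91, adjusted p = 1.48e-07). The endothelial list averaged 4.28 to 4.37 in mt-CCs and 4.30 to 4.34 in fl-CCs, with 8 of 10 near background in mt-CCs and 7 in fl-CCs. Of its 10 genes 3 were higher and 3 lower in mt-CCs, near the shares over all genes. Flt1, a receptor for vascular endothelial growth factor, was well above background and higher in mt-CCs (8.07 against 7.25 in fl-CCs, difference 0.82, adjusted p = 0.00104). With p53 R175H it was lower than with EV (5.82 in p53 R175H cells against 8.48 in EV cells, difference -2.66, adjusted p = 2.5e-07). EV cells were in turn higher in Flt1 than fl-CCs (difference 1.23, adjusted p = 2.24e-04). The part of these markers in the differences of the regulators was not tested.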

How the data were processed

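RNA of 12 cultures was hybridized by the authors to Affymetrix mouse GeneChips, checked with the affy package and normalized by RMA. The deposited values are log2 RMA values, with the same median (5.59) in all arrays. The arrays shared their distribution to within 0.018, and no further normalization was applied. Genome builds and tool versions upstream are not given in the sources used here. After 64 control probe sets were left out, 45037 were tested with limma 3.58.1 (R 4.3.3) in 1 fit of 4 group means, with Benjamini-Hochberg adjustment over all of them and a threshold of 0.05, as in the methods. Of these, 34945 carried 1 symbol, 932 several and 9160 none. Genes in lists were represented by the probe set of smallest adjusted p. Named list genes were the 3 highest and the 3 lowest called in mt-CCs against fl-CCs without overlap, with Cdh1 and Vim, while marker genes, Y-linked genes and further probe sets of a gene were added after their values were seen. Like patterns were sought among genes with a group mean of at least 5. The members and lists were chosen with earlier results of these data known. Replicate numbers did not pair the arrays. Trp53 was not analysed here, so the labels could not be checked on the targeted gene. A further allele that all 4 groups carry is not reported here. The procedure was tested on simulated data.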

Additional observations from a re-analysis of the deposited data

Results flagged for a closer look

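For 5 of the 10 regulators, and less firmly for Zeb1, the effect of endogenous mutant p53 (mt-CCs minus fl-CCs) differed from that of transfected mutant p53 (p53 R175H minus EV) by the test of the difference itself in the limma fit. The difference of the 2 effects on the log2 scale was 3.17 for Twist2, 2.58, 2.02 and 2.60 for 3 probe sets of Zeb2, 2.09 for Grhl2, and 1.59 and 1.44 for Snai2, all larger in the endogenous setting. The 2.60 of Zeb2 and the 2.09 of Grhl2 are fitted values that rest in part on groups near background, so their sizes are not reliable. For Zeb1 it was 0.37 (adjusted p = 0.048), a call lost with the replicate block (0.0724), with array weights (0.0562) and without most single arrays. For Esrp2 it was -2.39 and -0.77, with the lower values in the endogenous setting. The 2 settings differ in cell line, vector, selection and the species of the mutant protein, which cannot be told apart. No array of a group was singled out, since groups of 3 arrays are too small for that comparison.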

How the results depend on the processing

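Over 32 results and 693 alternative settings, 655 were graded the same, 38 weaker and 0 reversed. A count could be graded the same after it had changed, as for the members below. Some settings could change little. The arrays already shared their distribution, and leaving out an array of another group leaves the size of a difference as it was. The count of members called between mt-CCs and fl-CCs was 12 to 13 with any array left out. It was 9 with a log2 difference of at least 1 required, and 11 among probe sets with a mean of at least 5. For p53 R175H against EV the 5 calls became 3 in an unmoderated model and 1 with a log2 difference of at least 1 required, and 2 to 5 with any array left out. For EV against fl-CCs the 5 calls became 3 with that fold limit, and 4 to 6 with any array left out. With the replicate block, the counts were 12 for mt-CCs against fl-CCs, 5 for p53 R175H against EV, 5 for EV against fl-CCs, 9 for the difference of the 2 effects (Zeb1 lost, adjusted p = 0.0724) and 122 of 127 for the gene lists. Same-numbered arrays correlated at -0.09 to 0.058 after group means were removed, so they share only a number. List calls numbered 113 to 124 with any array left out and 107 with the probe set of highest mean, where splicing regulators lower in mt-CCs became 6 of 19 in place of 11. With log2 6 as the background level, 10 member probe sets were near background in every array, and with log2 4 there were 4. Changes in genes near background cannot be sized at these signals.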
